A study of Drosophila melanogaster with 19 samples.

Results

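The genes described here were those with lower expression in Drosophila embryos labelled ttk mutant and also in fluorescent cells sorted from such embryos. A gene was included when the mean of its mutant arrays lay at least 1.5 below the mean of its control arrays on the log2 scale in both materials, and when every mutant array lay below every control array in both. This gave 125 of 12679 genes, which is 0.986% of them. All levels below are log2 expression minus the median of the same array over all genes, so that 0 is the level of the median gene, and a difference of 1 is a doubling.

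Tramtrack (Ttk) is a transcription factor with a BTB domain and zinc fingers, and it is best known as a repressor. In the embryonic tracheal system, the branched network of epithelial tubes that carries air, it takes part in cell fate decisions and in the formation and sizing of the tubes. These tubes are lined by a chitin-containing matrix during their growth, and chitin is also a main component of the cuticle. RNA levels alone do not tell its direct targets from its indirect ones.

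The mutant experiment had 9 arrays and the over-expression experiment had 10 arrays of RNA from whole embryos or from sorted cells. The mutant groups were 2 arrays of embryos with btl-enh-RFPmoe (mutant controls), 2 arrays of ttk2D50 btl-enh-RFPmoe embryos, 3 arrays of control cells and 2 arrays of ttk2D50 cells. The over-expression groups were 3 arrays of btl-GAL4 btl-enh-RFPmoe embryos (controls), 3 arrays of btl-GAL4 UAS-ttk btl-enh-RFPmoe embryos, 2 arrays of control cells and 2 arrays of over-expression cells. Every group thus carried the btl-enh-RFPmoe reporter, which labels the cells that were sorted, and both over-expression groups carried the btl-GAL4 driver. Flies of the mutant experiment were kept at 25 °C and, per the labels, those of the over-expression experiment at 29 °C. Embryos were pooled over a wide range of developmental stages, homozygous mutants were picked by the absence of a fluorescent balancer, and each cell sample came from 100000 sorted cells. The btl enhancer and btl-GAL4 act in the trachea and in the ventral midline, and the reporter is also seen in other cell types, so the sorted cells were not trachea alone. For the over-expression control cells the strain label is that of the mutant, and they were grouped by their titles. In bulk RNA of this kind, fewer cells of a type and less RNA per cell cannot be told apart.

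The labels could be checked on a few genes. In the over-expression controls, trh, btl and sim, which mark trachea or midline, were higher in sorted cells than in embryos by 2.10, 2.59 and 2.42, and the mesodermal gene twi was lower, with a difference of −1.85. Srp, a marker of haemocytes and fat body, was also higher in the sorted cells, by 1.88, and the adjusted p from limma was at most 0.00011 for each of these 5 genes. The ttk transcript (FBgn0003870) did not follow the labels. In whole embryos the controls had 3.84 and 1.38, and the arrays labelled mutant had 3.85 and 3.501. The mean difference of 1.06 rests on control embryo replicate 2, without which it was −0.17. In cells labelled mutant ttk was 0.83 above control, with 4.25 and 4.24 against 3.49, 3.37 and 3.38. It was 0.47 below control in embryos and 0.78 below control in cells labelled over-expression (adjusted p = 0.283 and 0.308 from limma). This single value for the whole gene does not decide whether the labels are right, and groups are named below by their labels. Control embryo replicate 2 of the mutant experiment stood apart from its partner. It had the lower level for 8 of the 9 genes that could be checked, among them trh with 0.79 against 2.02. Of all genes, 45% were highest on replicate 1.

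None of the 125 FlyBase numbers could be paired with a gene symbol in the RefSeq table used here, so numbers are given. The study's lists of functional categories, many of them held here only in part, named 3 of them, all in lists drawn up from genes higher in the over-expression embryos of this series. FBgn0036952 and FBgn0035325 stand in the list for chitin metabolic process, and FBgn0002571 stands with them in the list for carbohydrate metabolic process, which is held in part.

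The differences that chose the genes are given as a description. In whole embryos labelled mutant, 654 genes lay at or below −1.5, in sorted cells 391 did, and 228 did in both. Of these 228 genes, 125 had no overlap between arrays in either material. The same rule in a single material took in 453 genes in embryos (3.57%) and 347 genes in cells (2.74%). Over the 125 genes the difference in embryos ranged from −4.41 to −1.51 with a median of −2.20, and that in cells ranged from −4.86 to −1.503 with a median of −2.18. The difference was larger in embryos for 67 genes and larger in cells for 58. For 48 genes it was at least 2 in both materials, and for 3 genes at least 3 in both. The 3 genes nearest inside the threshold had embryo and cell differences of −1.70 and −1.503, of −1.80 and −1.507, and of −1.507 and −2.41. The 3 nearest outside had −2.13 and −1.4997, −1.97 and −1.497, and −1.495 and −1.70, so that genes on either side of the threshold had nearly the same values.

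**Figure D1:**
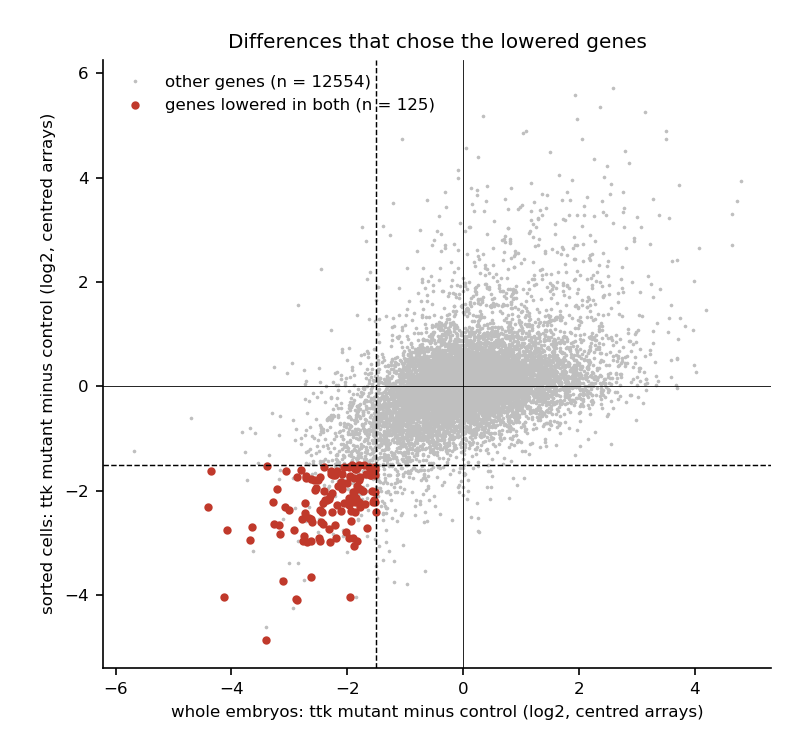
Labelled ttk mutant minus control in whole embryos (horizontal axis) and in sorted cells (vertical axis), in log2 units of median-centred arrays, with a point for each gene and dashed lines at the threshold of −1.5. The 125 lowered genes (red) fill the lower left corner from the threshold to −4.41 in embryos and −4.86 in cells, and the grey points in that corner are genes whose arrays overlapped.

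FBgn0028940 had the most negative mean of both differences. Its level was −0.01 and 1.35 in control embryos against −3.72 and −1.75 in embryos labelled mutant. Control cells had 1.53, 1.29 and 0.80 and cells labelled mutant −3.85 and −3.45, a difference of −4.86 against −3.40 in embryos. Both mutant materials were thus far below both controls, and the replicates of the embryo groups were further apart than those of the cell groups. FBgn0034010 came next. It had 1.04 and 3.47 in control embryos against −3.003 and −0.73 in mutant embryos, and it had 3.998, 4.31 and 3.84 in control cells against 0.06 and −0.02 in mutant cells. This gene was well above the median gene in sorted control cells and at the median in the cells labelled mutant.

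The 3 genes of these lists rested more on single arrays. FBgn0036952 had −1.53 and 2.15 in control embryos against −3.92 and −2.81 in mutant embryos. In cells its control arrays had −3.14, 2.10 and −2.70 and its mutant arrays −4.30 and −4.09. FBgn0035325 had −0.41 and 2.39 in control embryos against −1.22 and −0.54 in mutant embryos, and 1.12, 2.22 and −1.25 in control cells against −1.62 and −1.79 in mutant cells. For FBgn0002571 the control embryos had −1.10 and 2.80, the mutant embryos −2.45 and −1.30, the control cells −1.70, 1.93 and −1.86, and the mutant cells −2.60 and −2.95. All 3 genes were highest on control embryo replicate 2 and, among control cells, on replicate 2. On the other control arrays FBgn0036952 and FBgn0002571 were nearer to the mutant arrays than to replicate 2.

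The chitin list holds 27 measured genes. They are the genes of that category that the study found higher in over-expression embryos, so that their rise there is no independent evidence and the list is not the whole category. Of the 27 genes, 2 belonged to the lowered set (7.41% of the list, against 0.986% of all genes). In embryos labelled mutant 25 of the 27 were below control (92.6%, against 50.7% of all genes), with a median difference of −0.55. In cells 16 were (59.3%, against 49%), with a median of −0.30. The medians of all genes were −0.02 and 0.01. Every mutant array lay below every control array for 12 of the 27 in embryos (44.4%, against 27.3% of all genes). In cells this held for 9 (33.3%, against 18.6%). The embryo values include control embryo replicate 2, and the list was not counted without it. In cells labelled over-expression the median of the list was 0.10, with 0 genes higher (against 1.51% of all genes) and 1 lower (3.7%, against 1.01%) by the study's candidate rule, an absolute log2 difference of 1 or above with an unadjusted p of at most 0.05 from limma.

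The rule leaves out genes whose control level is too low for a fall of this size, so the levels in its own controls are a description. In control embryos of the mutant experiment they lay between percentiles 30.1 and 97.8 of all genes, with a median at percentile 58.3, and in control cells between 27.5 and 98.6, with a median at 48.1. In both control groups 0 of the 125 were below the 25th percentile of all genes. On the arrays labelled mutant 20 were below it in embryos and 40 in cells. In the over-expression experiment, whose arrays the rule did not use, the median percentile was 51.1 in control embryos against 49.1 in control cells. There, 3 and 9 of the genes were below the 25th percentile, and the lowest lay at percentiles 4.98 and 1.55.

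On the arrays that the rule used, the set moved strongly between replicates of the same group. A single high control array makes the mean difference more negative, so the rule favours genes with such an array. The spread in this paragraph, also beside that of all genes, is therefore a description. In control embryos of the mutant experiment the median level over the 125 genes was −0.26 on replicate 1 and 2.03 on replicate 2, and 116 genes were higher on replicate 2. The median difference between these replicates was 2.07, against 0.09 over all genes. In embryos labelled mutant the median level was −1.99 and −0.99, with 118 genes higher on replicate 2. Control cells had medians of −0.38, 0.97 and −0.41, and mutant cells had −2.60 and −2.58. The medians of the mutant cells were thus the most alike, and 88 of the genes were highest on control cell replicate 2 (70.4%, against 17% of all genes). The median SD of a gene between replicate embryo arrays was 1.46 for the control and 0.69 for the mutant, against 0.41 and 0.19 over all genes. Between replicate cell arrays it was 0.82 and 0.25, against 0.27 and 0.19.

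**Figure D2:**
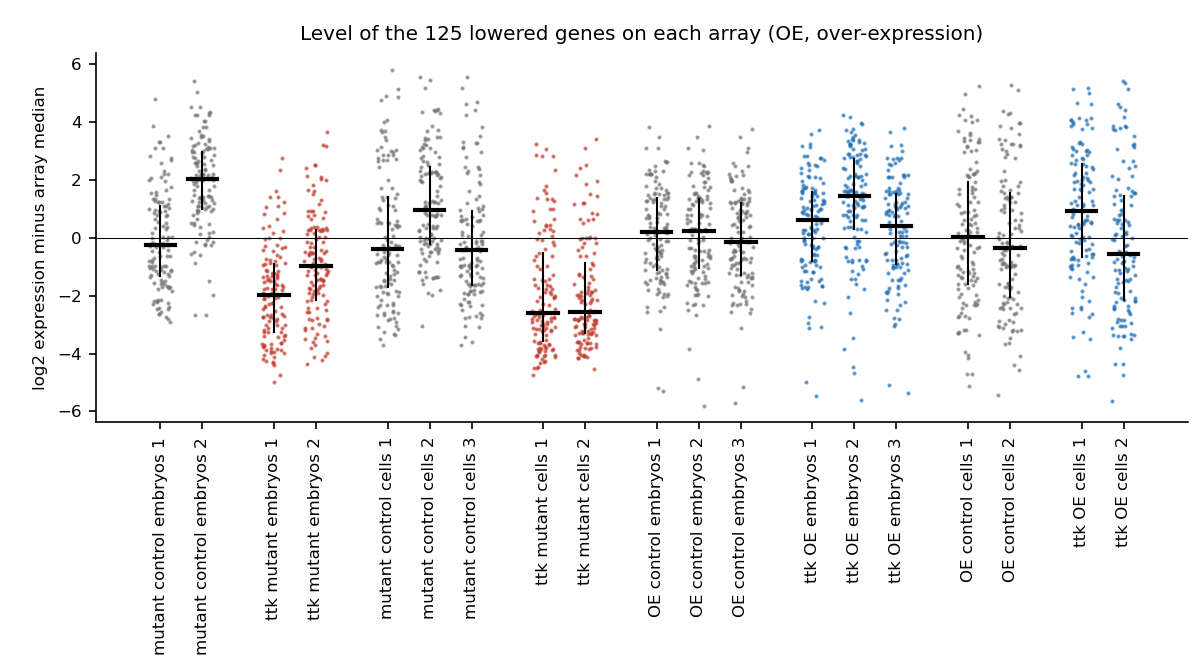
Level of each of the 125 lowered genes (points) on each of the 19 arrays, as log2 expression minus the array median, with the median (thick bar) and the quartiles (thin line). The median lies at 2.03 on control embryo replicate 2 of the mutant experiment and at 1.46 on over-expression (OE) embryo replicate 2, and near −2.6 on both mutant cell arrays.

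A similar spread appeared in the over-expression experiment, which the rule did not use. The median level of the 125 genes was 0.20, 0.24 and −0.14 in control embryos against 0.62, 1.46 and 0.42 in embryos labelled over-expression. It was 0.04 and −0.34 in control cells against 0.93 and −0.55 in cells labelled over-expression. Over-expression embryo replicate 2 was the highest of its group for 92 genes (73.6%, against 28.4% of all genes), and over-expression cell replicate 1 for 97 (77.6%, against 44.7%). The control embryos there were tight, with a median SD of 0.12. Across all genes, the deviation of over-expression embryo replicate 2 from the other replicates had r = 0.513 with the difference between replicates 2 and 1 of the mutant control embryos, and r = 0.569 over the 125 genes. It had r = 0.591 across all genes with the deviation of control cell replicate 2, and 0.519 over the 125 genes. The difference between replicates 2 and 1 of the mutant embryos had r of 0.463 and 0.434 across all genes with those of the mutant control embryos and of over-expression embryo replicate 2. Over the 125 genes these values were −0.00678 and −0.0483. The rule chose the 125 genes on the mutant and mutant control arrays, so each r over the 125 genes here is a description. These values are across genes, which are not independent replicates, and no array is common to both sides of a pair. Of the 9 marker genes with a FlyBase number, ttk included, over-expression embryo replicate 2 was the lowest of its group for 9, over-expression cell replicate 1 for 7, and mutant control cell replicate 2 for 3. In over-expression cells 55.3% of all genes were highest on replicate 2. For the groups of 3 arrays the share of all genes that were lowest was not counted. What the arrays concerned have in common was not tested.

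Without control embryo replicate 2 the rule took in 51 genes, of which 45 were among the 125. Without control embryo replicate 1 it took in 257, of which 121 were. Without mutant embryo replicate 2 it took in 235 genes, and without control cell replicate 2 it took in 88, of which 83 were among the 125. With both control embryo replicate 2 and control cell replicate 2 left out, 40 genes met it and 33 of these were among the 125.

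The arrays of the over-expression experiment were then used to ask whether the same genes differed in embryos and cells labelled over-expression. In whole embryos labelled over-expression, 112 of the 125 genes (89.6%) were above control, against 36.3% of all genes. The median difference was 0.53, with quartiles of 0.21 and 0.79 and a range from −1.45 to 2.38, and the median of all genes was −0.09. For 70 genes (56%) every over-expression array was above every control array, against 14.1% of all genes, and for 6 genes (4.8%) every array was below, against 23.6%. The size was modest for most genes. The candidate rule was met by 11 genes in the higher direction (8.8%, against 2.51% of all genes) and by 1 in the lower direction (0.8%, against 0.718%). An unadjusted p of at most 0.05 alone was reached by 48 genes (38.4%, against 17.1%). After Benjamini-Hochberg adjustment over all 12679 genes 0 of the 125 passed an adjusted p of 0.05 with limma, while 23 genes of the whole array were higher (0.181%) and 18 lower (0.142%).

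Most marker genes were below control in over-expression embryos, as were most genes. Of the 9 markers 8 were below, while 36.3% of all genes were above control. The differences were −0.98 for btl, −1.04 for sim, −0.67 for twi and −0.64 for Srp, and dys at 0.44 was above. Over the 9 genes the adjusted p from limma lay between 0.245 and 0.492. Without over-expression embryo replicate 2 the differences of btl, sim, twi, Srp and dys were −0.43, −0.65, −0.31, −0.41 and 0.87. Their part in the result was not tested.

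The counts of the 125 genes depended on over-expression embryo replicate 2. Without it, the median difference was 0.28, 94 genes were above control (75.2%, against 42.3% of all genes), and 78 had no overlap in the higher direction (62.4%, against 21%). The candidate rule was then met by 6 genes, all of them higher (4.8%, against 1.8% of all genes), while 44 of the 125 passed the adjusted p, 40 of them higher (11.5% of all genes passed in either direction). The candidate count was 22 without over-expression embryo replicate 3, with 21 higher (16.8%, against 3.6% of all genes) and 1 lower (0.8%, against 1.66%). It was 5 without control embryo replicate 3, with 4 higher (3.2%, against 1.65%) and 1 lower (0.8%, against 0.442%). Of the 51 genes that the rule gave without mutant control embryo replicate 2, 41 were above control in over-expression embryos (80.4%), and the median was 0.36. Of the 40 genes without both control arrays of the mutant experiment that stood apart, 30 were above control (75%), and the median was 0.26.

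**Figure D3:**
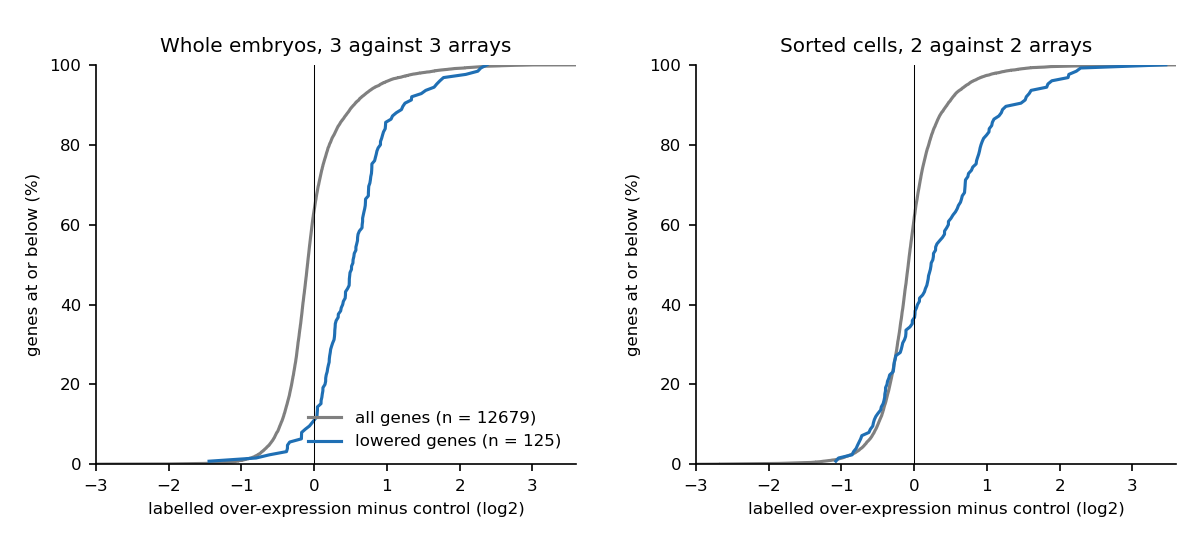
Cumulative share of genes (vertical axis, %) at or below a given log2 difference between arrays labelled over-expression and control (horizontal axis), in whole embryos and in sorted cells, for all genes (grey) and the 125 lowered genes (blue). The blue curve lies to the right of the grey curve over most of its range in embryos, with medians of 0.53 and −0.09, and by less in cells, with medians of 0.23 and −0.08.

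FBgn0034011 had the largest positive difference in embryos. Its level was −1.48, −1.81 and −2.27 in control embryos against 0.12, 1.59 and −0.14 in over-expression embryos. The groups did not overlap, and the difference was 2.38 (standard error 0.49, adjusted p = 0.142 from limma). In the mutant experiment it had been −2.39 and −0.14 in control embryos against −4.31 and −3.48 in mutant embryos. FBgn0033541 followed with a difference of 2.29 (standard error 0.59, adjusted p = 0.186 from limma), from levels of 0.21, 0.26 and −0.70 in the control and of 1.77, 3.49 and 1.38 in over-expression embryos. FBgn0034010, among the most lowered genes in the mutant, had 1.55, 1.38 and 0.87 in control embryos against 2.48, 3.93 and 2.58 in over-expression embryos, a difference of 1.73 (standard error 0.43, adjusted p = 0.177 from limma). For all 3 genes over-expression embryo replicate 2 was the highest array.

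The 3 genes of the study's lists met the candidate rule in the higher direction too, which is how the study chose those lists. FBgn0035325 had −0.53, −0.68 and −0.69 in control embryos against 0.67, 1.15 and 0.31 in over-expression embryos, a difference of 1.34 (standard error 0.22, adjusted p = 0.1 from limma). FBgn0036952 had 1.40, 1.39 and 0.42 against 2.23, 3.76 and 2.17, a difference of 1.65 (standard error 0.51, adjusted p = 0.232 from limma). FBgn0002571 had 0.37, 0.32 and −0.41 against 1.01, 3.28 and 1.05, a difference of 1.69 (standard error 0.65, adjusted p = 0.281 from limma). None of the 3 overlapped between the groups, and FBgn0002571 was more than 2 higher on replicate 2 than on its other over-expression arrays.

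FBgn0028940, the most lowered gene of the mutant, overlapped between the groups in over-expression embryos. It had 0.75, 0.80 and 0.61 in the control against 0.96, 1.302 and 0.77 in over-expression embryos, a difference of 0.29 (standard error 0.16, adjusted p = 0.352 from limma). The single candidate in the lower direction was FBgn0040619. Control embryos had −1.95, −2.27 and −1.97 and over-expression embryos −3.09, −4.47 and −2.98, a difference of −1.45 (standard error 0.41, adjusted p = 0.212 from limma). It was thus lower than control both in the mutant and in the over-expression embryos, and its level was below the median gene on all 19 arrays.

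**Figure D4:**
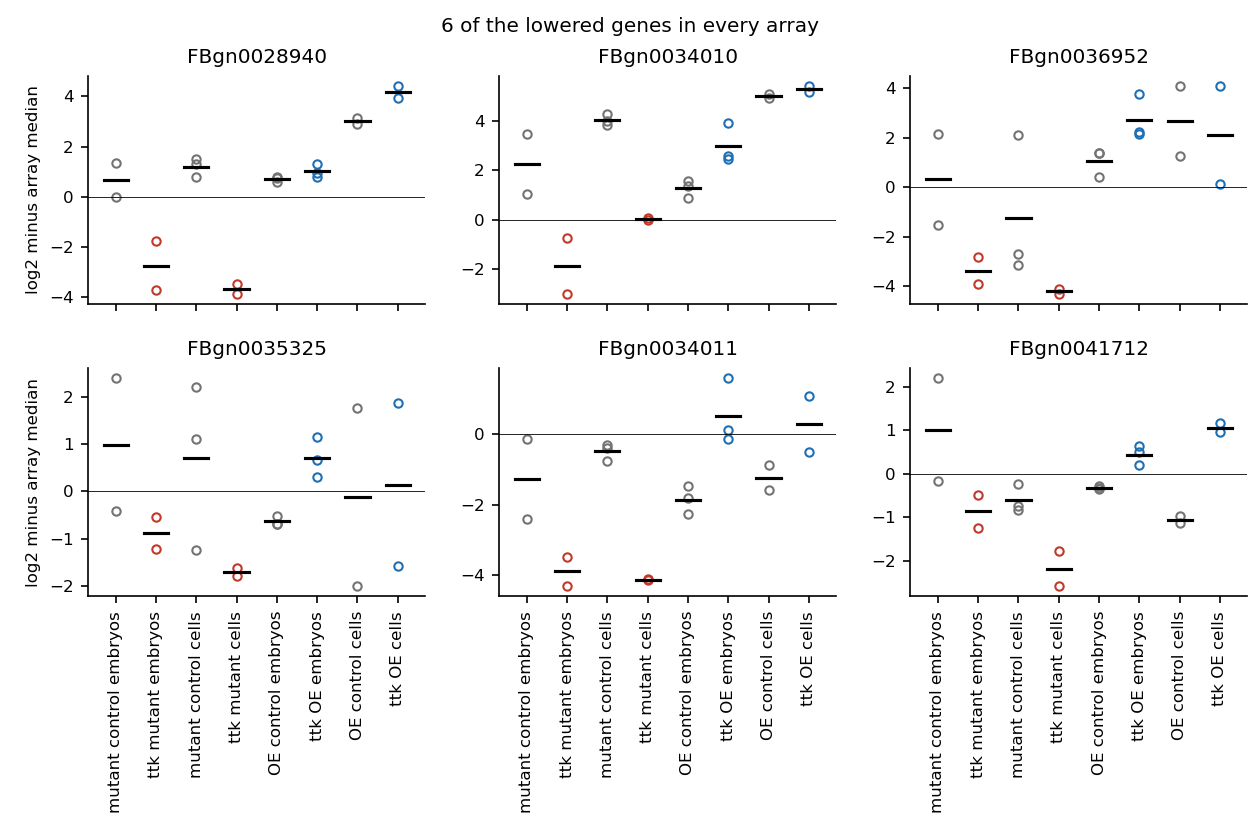
Level of 6 of the lowered genes on every array, as log2 expression minus the array median (vertical axis), for the 8 groups (horizontal axis, OE for over-expression), with a circle for each array and a bar at the group mean. Mutant arrays (red) lie below their controls in all 6 panels, as the rule required, and over-expression arrays (blue) lie above control in embryos in 5 panels without overlap, while FBgn0028940 overlaps there.

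In sorted cells labelled over-expression the shift was smaller and less even. Of the 125 genes, 80 were above control (64%, against 38.4% of all genes). The median difference was 0.23, with quartiles of −0.27 and 0.85 and a range from −1.08 to 3.46, and the median of all genes was −0.08. Both over-expression arrays were above both control arrays for 36 genes (28.8%, against 15.6%), and both were below for 27 (21.6%, against 33.7%). The candidate rule was met by 8 genes in the higher direction (6.4%, against 1.51%) and by 2 in the lower (1.6%, against 1.01%). With the values as deposited these numbers were 8 and 0 (against 1.85% and 0.686% of all genes). After adjustment 0 of all 12679 genes passed with limma, and 26 of the 125 had an unadjusted p of at most 0.05 (20.8%, against 12.1%). The median turned to −0.23 without over-expression cell replicate 1, with 46 genes above control (36.8%, against 37.9% of all genes) and 9 candidates in each direction (7.2%, against 2.45% higher and 1.45% lower). It was 0.65 without over-expression cell replicate 2, with 34 candidates higher (27.2%, against 4.39%) and 3 lower (2.4%, against 3.45%). The direction in cells therefore rests on replicate 1. Of the 9 marker genes 7 were below control in over-expression cells, where 38.4% of all genes were above it. Among them were sim at −1.10 and trh at −0.51 (adjusted p = 0.45 and 0.577 from limma). The part of the marker genes was not tested. Of the 51 genes that the rule gave without mutant control embryo replicate 2, 29 were above control in over-expression cells, and the median was 0.07.

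FBgn0011283 had the largest difference in cells. It had −2.03 and −2.09 in the control against 2.24 and 0.56 in cells labelled over-expression, a difference of 3.46 (standard error 0.61, adjusted p = 0.308 from limma). FBgn0041712 had −1.14 and −0.97 in the control against 1.17 and 0.96 in over-expression cells, a difference of 2.12 (standard error 0.16, adjusted p = 0.187 from limma), with replicates close together. In over-expression embryos FBgn0041712 had 0.50, 0.63 and 0.20 against −0.32, −0.36 and −0.28 in the control. FBgn0028940, whose embryo groups overlapped, had 3.13 and 2.90 in control cells against 3.94 and 4.42 in over-expression cells, a difference of 1.17 (standard error 0.22, adjusted p = 0.308 from limma).

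The 3 genes of the study's lists did not separate the groups in cells. FBgn0035325 had 1.77 and −2.002 in control cells against 1.86 and −1.57 in over-expression cells, and FBgn0036952 had 4.09 and 1.24 against 4.09 and 0.15. For both, the replicates were much further apart than the groups, and no difference was detectable between them. FBgn0002571 had −2.77 and −1.61 in control cells against 1.26 and −2.42 in over-expression cells, so that its mean difference rests on 1 array.

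The 2 candidates in the lower direction in cells were FBgn0038985 and FBgn0033355. FBgn0038985 had 1.69 and 1.56 in control cells against 0.49 and 0.60 in over-expression cells, a difference of −1.08 (standard error 0.14, adjusted p = 0.272 from limma). In embryos it had 0.51, 0.51 and 0.36 in the control against 0.62, 1.77 and 0.58 with over-expression. That difference was 0.53 (standard error 0.33, adjusted p = 0.386 from limma), with replicate 2 far above the other arrays. The mean differences in cells and embryos thus had opposite signs. FBgn0033355 had 0.28 and −0.28 in control cells against −0.87 and −1.21 in over-expression cells, a difference of −1.04 (standard error 0.26, adjusted p = 0.352 from limma). In embryos it had −1.59, −1.77 and −1.64 in the control against −0.77, −1.42 and −1.02 with over-expression. That difference was 0.60 (standard error 0.18, adjusted p = 0.226 from limma), again of the opposite sign.

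Of the 125 genes, 19 met the candidate rule in the higher direction in embryos or in cells (15.2%, against 3.64% of all genes) and 3 in the lower direction (2.4%, against 1.55%), with 0 in both materials in any combination of directions. Over all genes 47 were higher in both (0.371%), 23 lower in both (0.181%) and 2 opposite (0.0158%). The differences in embryos and cells had r = 0.376 across the 125 genes and r = 0.380 across all genes, with 74 of the 125 above control in both materials and 7 below in both. Tested as an interaction in limma, the change in cells minus that in embryos met the candidate rule upwards for 4 genes (3.2%, against 1.16%) and downwards for 6 (4.8%, against 1.73%), and 0 passed the adjusted p, where 3 genes of the whole array did so upwards (0.0237%) and 1 downwards (0.00789%). An unadjusted p of at most 0.05 was reached by 21 genes (16.8%, against 9.65%), and the change was larger in cells for 43 (34.4%, against 49.9%). FBgn0041712 came closest, with a change 1.35 larger in cells (adjusted p = 0.0798 from limma).

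The controls gave the level of each gene in sorted cells beside that in whole embryos. Among controls of the over-expression experiment, 30 of the 125 genes were higher in sorted cells than in embryos by the candidate rule (24%, against 22.3% of all genes), and 37 were lower (29.6%, against 9%). With the adjusted p alone, limma called 43 higher (34.4%, against 55.6%) and 52 lower (41.6%, against 21.9%), and 96 had an unadjusted p of at most 0.05 (76.8%, against 79.2%). The median difference was −0.17, against 0.43 over all genes, with a range from −3.67 to 6.32. The split depends on the scaling, since the median array level as deposited was 9.20 to 9.24 in control embryos against 8.16 to 8.19 in control cells. With the values as deposited 11 genes were higher (8.8%, against 4.44% of all genes) and 67 lower (53.6%, against 34%). After quantile normalization 23 were higher (18.4%, against 11.4%) and 40 lower (32%, against 12.4%). In the mutant controls, given without a test because the rule used these arrays, 35 genes were higher in cells and 90 lower, with a median of −0.72 against 0.17 over all genes.

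The set thus held genes of both kinds. FBgn0028545 had the largest positive difference, with −1.22, −0.90 and −1.03 in control embryos against 5.26 and 5.28 in control cells, a difference of 6.32 (standard error 0.11, adjusted p = 9.47e-06 from limma). In the mutant experiment it had 5.81, 5.45 and 5.20 in control cells against 2.83 and 2.40 in mutant cells. It therefore stayed well above the median gene in sorted cells labelled mutant. FBgn0054054 had −1.22, −1.15 and −1.40 in control embryos against 4.46 and 4.38 in control cells, a difference of 5.67 (standard error 0.10, adjusted p = 9.47e-06 from limma). At the other end FBgn0051002 had 3.82, 3.86 and 3.76 in control embryos against 0.46 and −0.17 in control cells, a difference of −3.67 (standard error 0.19, adjusted p = 6.13e-05 from limma), and in the mutant experiment it had 4.80 and 4.23 in control embryos against 2.77 and 3.19 in mutant embryos. FBgn0030587 had 0.34, 0.29 and 0.04 in control embryos against −3.29 and −2.89 in control cells, a difference of −3.31 (standard error 0.15, adjusted p = 4.81e-05 from limma). None of these 4 genes overlapped between cells and embryos.

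**Figure D5:**
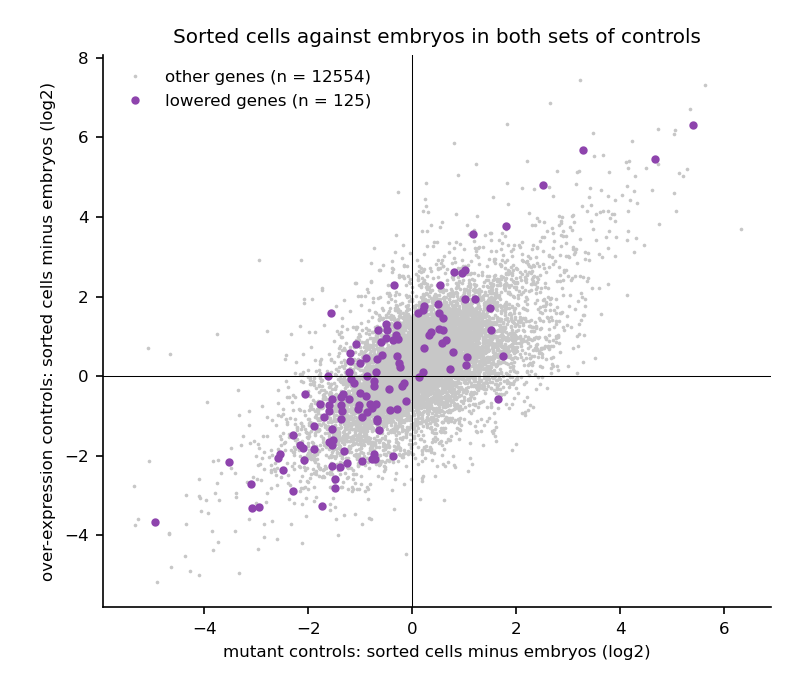
Sorted cells minus whole embryos in the controls of the mutant experiment (horizontal axis) and of the over-expression experiment (vertical axis), in log2 units of centred arrays, for the 125 lowered genes (purple) and the other genes (grey). The purple points run from the lower left to the upper right, with r = 0.844 across the 125 genes and r = 0.659 across all genes.

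The place of most of the genes between cells and embryos was alike in both experiments, which have no array in common. The differences had r = 0.844 across the 125 genes and r = 0.659 across all genes. The rule used the mutant control arrays, so the value over the 125 genes is a description. Some genes changed side, such as FBgn0038985 with −0.48 in the mutant controls and 1.17 in the over-expression controls. The 35 genes that were higher in sorted cells in the mutant controls had a median difference of 0.48 in over-expression embryos and of −0.11 in over-expression cells. The 90 genes that were lower there had 0.54 and 0.43. The difference between these subsets was not tested.

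A set chosen in the opposite way was put beside the lowered genes. Genes at least 1.5 higher in both materials labelled mutant, with no overlap between arrays, numbered 144. In over-expression embryos 66.7% of them were above control, with a median of 0.28, against 89.6% and 0.53 for the lowered genes and 36.3% and −0.09 for all genes. In over-expression cells the raised genes had a median of −0.000862 and 49.3% were above control. Both sets were thus more often above control in over-expression embryos than the average gene, and no test of the difference between the sets was made.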

How the data were processed

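RNA of 19 samples had been hybridised by the authors to 1-colour Affymetrix Drosophila arrays after isothermal amplification. The deposited table holds log2 values of the authors, 1 per array and FlyBase gene, and the submitters' processing notes name RMA. It was used with 12679 genes, and 182 control features were left out. All 19 columns belong to samples of the study, with 0 others. Groups follow the sample titles. At quality control the study had left out an array each of the mutant control embryos, the mutant embryos and the mutant cells. It judged the remaining arrays to be comparable within groups. Each array was centred on its median over genes. The arrays give no depth, and their number limits the precision. The study describes its RNA extractions as biological replicates, while the labels do not say how independent they were. The p-values measure only the spread between these samples, part of which may be technical.

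Differences on the over-expression arrays were tested two-sided with limma 3.58.1 in R 4.3.3 (lmFit and eBayes on the arrays of the compared groups, all 4 groups for the interaction), with Benjamini-Hochberg adjustment over 12679 genes. The mutant arrays chose the genes and were not tested. The smallest exact permutation p is 0.1 for 3 arrays against 3 or 2, and 0.333 for 2 against 2, so no single-gene permutation test was made. On simulated data with 200 genes changed by 2, 99.5% were found in the embryo comparison of 3 against 3, 97% in the cell comparison and 99% in the control comparison, with 61, 116 and 24 unchanged genes also meeting the candidate rule. The simulated noise was drawn independently for each gene and array. It held no deviation of a whole array shared by many genes, which the real arrays show. These numbers therefore check the code and do not give the recovery or the false calls in these data.

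Named are the 2 genes with the most negative mean mutant difference, the members of the study's functional lists, at most 2 candidates per direction in each comparison, and ttk. The members and lists were chosen with earlier results of these data known. Of 15 marker and pathway lists written by symbol, 0 had the 80% of genes with a FlyBase number needed for use, the highest share being 13.6%. Gene positions and sequences were not analysed here. Alternatives were other scalings, thresholds, fits, a replicate block and leaving out each array. Leaving out arrays for medians and for counts of genes above control, the rule without doubted control arrays, and the set chosen in the opposite way were added after the data were seen.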

Additional observations from a re-analysis of the deposited data

Results flagged for a closer look

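For 8 of the 125 lowered genes (6.4%, against 1.95% of all genes), every array labelled over-expression was above every control array in embryos and below every control array in cells, and for 0 the reverse held (against 1.6%). These counts depend on the shares in each material. In embryos 56% of the 125 were above without overlap (against 14.1% of all genes) and 4.8% below (against 23.6%). In cells 28.8% were above (against 15.6%) and 21.6% below (against 33.7%). Among these 8 were 2 of the genes named above, for which the change in cells minus the change in embryos was −1.61 for FBgn0038985 (adjusted p = 0.303 from limma, tested as an interaction) and −1.64 for FBgn0033355 (adjusted p = 0.132 from limma). Neither passed an adjusted p of 0.05, so a difference between the materials was not shown.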

How the results depend on the processing

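With 2 or 3 arrays in a group, the membership and the counts moved with single arrays. The set of 125 genes became 300 at a threshold of −1, 48 at −2 and 228 when arrays were allowed to overlap, and ranged from 51 to 257 with each array left out. It held 173 genes with the values as deposited (90 of them among the 125) and 130 after quantile normalization (116). The 12 candidates in over-expression embryos became 7 with all 4 groups in one fit, 6 without moderation and 0 by an adjusted p, and ranged from 5 to 22 with each array left out. The 10 candidates in over-expression cells became 4 without moderation and 0 with an adjusted p, and ranged from 7 to 37. With each array left out, candidates in the higher direction made up 1.65% to 3.6% of all genes in embryos and 1.3% to 4.39% in cells. The share over all genes was not computed for the other fits, so their counts are not read as a result about the set. The 10 candidates for a difference between the materials became 0 with an adjusted p. The median change in over-expression cells ranged from −0.23 to 0.65 and changed sign without over-expression cell replicate 1. The cause of these moves was not tested.

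The replicate number was not taken to pair the over-expression arrays. Deviations of same-numbered arrays had r of −0.320, 0.353 and 0.412 in embryos and 0.111 in cells. Differently numbered embryo arrays had r from −0.460 to 0.455. With 2 arrays in each group of cells, every pair has the same r apart from its sign. In the mutant embryos the differences between replicates 2 and 1 of both groups had r = 0.463 across all genes, and no fit was made there that a block could enter. With the number as a block, 17 genes were candidates in embryos, 15 in cells and 67 between the controls, against 12, 10 and 67. The share over all genes with the block was not computed, so these counts are not read as a result about the set.

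Among named genes the direction changed with single arrays. In over-expression cells the difference ranged from −1.62 to 2.15 for FBgn0035325 (−1.46 without over-expression cells replicate 1), from −2.52 to 1.42 for FBgn0036952 (0.87 without over-expression control cells replicate 1) and from −0.23 to 3.45 for FBgn0002571. Between control cells and control embryos it ranged from −1.37 to 2.40 for FBgn0035325, which had −0.54 as deposited.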
